A study of Mus musculus with 47 samples.

Results

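The clustered protocadherins are a family of cell surface adhesion proteins encoded in 3 neighbouring gene clusters, alpha, beta and gamma, on mouse chromosome 18. They were taken here as every row of the deposited count and FPKM tables whose gene name is a clustered protocadherin symbol, which gave 59 of 48795 rows: 14 alpha, 22 beta and 23 gamma. FPKM, the authors' level per gene, scales fragments by gene length and library size. In GENCODE M21, on the GRCm38 build, the alpha members ran from position 36930184 to 37187661, the beta members from 37264938 to 37524479 and the gamma members from 37661793 to 37841873, all on the plus strand. The 59 rows carried 56 distinct symbols, because 3 symbols each stood on 2 rows. Of the rows named Pcdha11, ENSMUSG00000007440 is Pcdha11 in GENCODE M21 as well. It starts nearest to the RefSeq gene Pcdha10 (same build) and is called Pcdha10 below on that ground alone. Of the rows named Pcdhga8, ENSMUSG00000023036 is Pcdhgc4 in both GENCODE M21 and RefSeq and is called Pcdhgc4 below. Both Pcdhgb8 rows were nearly empty, with 0 to 9 counts per library in ENSMUSG00000103081 and 0 in all 47 libraries in ENSMUSG00000109483. The beta member Pcdhb1 also had 0 to 9 counts, so that 56 members (14 alpha, 21 beta and 21 gamma) passed the filter on low counts and were tested.

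Each alpha and gamma variable exon has its own promoter and is spliced to constant exons shared by its cluster, while each beta gene is a stand-alone unit. In vertebrate neurons a cell chooses few of the alternate promoters, with CTCF and cohesin bringing the chosen promoter to a distal enhancer, whereas the C-type members (Pcdhac1, Pcdhac2, Pcdhgc3, Pcdhgc4 and Pcdhgc5) are used more uniformly across cells. The proteins bind the same isoforms on facing membranes, which serves self-recognition of dendrites and axons, neuron survival and synapse formation in the mouse brain.

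The study crossed Q140 mice, in which 1 copy of the huntingtin gene Htt carries a knocked-in CAG expansion that models Huntington's disease, with mice lacking 1 or both copies of Ccdc82, which encodes a coiled-coil domain protein. Cerebral cortex was taken from C57BL mice at 6 months of age, and 47 RNA libraries were sequenced. The groups were Q140 X Ccdc82-/- (4 males and 3 females), Ccdc82-/-, Q140 X Ccdc82+/-, Ccdc82+/-, Q140 and WT (4 males and 4 females each). The labels do not describe how the Ccdc82 allele was made. They name separate samples but do not say how littermates or cages fell among the groups.

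Library totals ran between 43554594 and 61370843 counts (median 50473683), and the members took 32905 to 47744 counts per library, or 0.0744% to 0.0799% of it. Ccdc82 followed its labels. It averaged 5.51 ± 0.426 CPM, counts scaled to library size, in Q140 X Ccdc82-/- mice (SD, n = 7). It averaged 5.32 ± 0.595 CPM in Ccdc82-/- mice, 11.4 ± 0.875 CPM in Q140 X Ccdc82+/- mice, 10.9 ± 0.962 CPM in Ccdc82+/- mice, 15.6 ± 0.996 CPM in Q140 mice and 16.2 ± 1.58 CPM in WT mice (SD, n = 8 each), so that the 3 Ccdc82 dosages did not overlap. Htt was lower with Q140, averaged over the Ccdc82 genotypes, by a log2 difference of -0.07 (SE 0.0147, edgeR adjusted p = 0.00320). Of the tissue markers, the 9 of cortical excitatory neurons summed to between 1831 and 2092 CPM per mouse, the 6 striatal markers to between 115 and 169 CPM, and the 5 choroid plexus markers to between 2.44 and 6.97 CPM. No marker in the 12 cell type lists was at 0 in every library. One mouse, Q140 female 1, stood apart: it had the lowest summed excitatory neuron markers of all 47 mice, at 1831 CPM against 1960 to 2048 CPM in the other Q140 mice, and the highest summed oligodendrocyte markers, at 2990 CPM against 2045 to 2392 CPM. Its summed oligodendrocyte precursor and microglia markers were also the highest of the 47. Its summed pan-neuronal markers, at 9276 CPM, lay within the 9026 to 9376 CPM of the other Q140 mice, as did its interneuron markers within theirs.

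Gamma members carried most of the family's counts. Over all mice the gamma cluster held 61.3% of the member counts, the beta cluster 23.9% and the alpha cluster 14.8%, and the 5 C-type members alone held 37.6%. These are shares of counts and not of transcripts. Exon bases that no other gene shares made up a median of 46.4% of an alpha member, 55.3% of a gamma member and 100% of a beta member. Reads on shared bases may not have been counted, as described below. In the alpha cluster Pcdhac2, which is required for the tiling of serotonergic axons in the mouse, took 48.8% of the CPM. In the gamma cluster Pcdhgc5, whose protein binds the GABA-A receptor, took 31.1% and Pcdhgc3, which acts on dendrite growth through the Wnt inhibitor Axin1, took 14.1%. The beta cluster was the most even: its top members, Pcdhb17 and Pcdhb9, took 9.53% and 9.27% of its CPM.

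Per length, the 3 highest members were C-type. Pcdhgc5 averaged 19.2 ± 0.948 FPKM (SD, n = 47, from 17.5 to 21.2), Pcdhgc3 12.1 ± 0.660 FPKM (from 10.8 to 13.3) and Pcdhac2 9.40 ± 0.384 FPKM (from 8.56 to 10.3), and the ranges of these 3 over mice did not overlap. Pcdhb9 (5.58 ± 0.441 FPKM) and Pcdhga11 (5.24 ± 0.360 FPKM) came next, and their ranges overlapped. Further down the order the range of every member overlapped that of its neighbour as well. Pcdhb17 stood at 3.76 ± 0.242 FPKM, Pcdhgc4, needed for the survival of cortical interneurons in the mouse, at 2.62 ± 0.149 FPKM, Pcdha12 at 2.60 ± 0.210 FPKM and Pcdhac1 at 1.025 ± 0.104 FPKM. The lowest tested members were Pcdha8 at 0.155 ± 0.0946 FPKM and Pcdha4 at 0.194 ± 0.0386 FPKM.

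The order of levels depended on which bases were counted as a member's length. In GENCODE M21 each alpha member shares 2860 to 2864 exon bases and each placed gamma member 2116 to 3157 exon bases with other members, while the beta members share none apart from the 455 bases common to Pcdhb21 and Pcdhb22. The length implied by each FPKM value equalled the full M21 exon length in 58 of the 58 rows found there, shared bases included. Yet 4 genes on the same strand whose exons lie wholly within those of members (Gm37013, Gm37388, Gm38182 and Gm42416) had 0 counts in all 47 libraries, so reads on exon bases common to several genes had not been counted for them. Divided by a member's own bases instead, the 3 highest members kept their places, at 31.8 CPM per kb for Pcdhgc5, 19.6 CPM per kb for Pcdhgc3 and 18.3 CPM per kb for Pcdhac2. Pcdha4, which has 494 bases of its own, stood at place 55 by FPKM and at place 27 by its own bases (2.27 CPM per kb), and Pcdhb9 at place 4 and place 11. The library kit keeps strand, but the sources at hand leave unstated whether the counting used it, and reads of antisense genes within the clusters, such as Gm26672 with up to 156 counts, cannot be told apart from reads of the members they overlap.

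**Figure D1:**
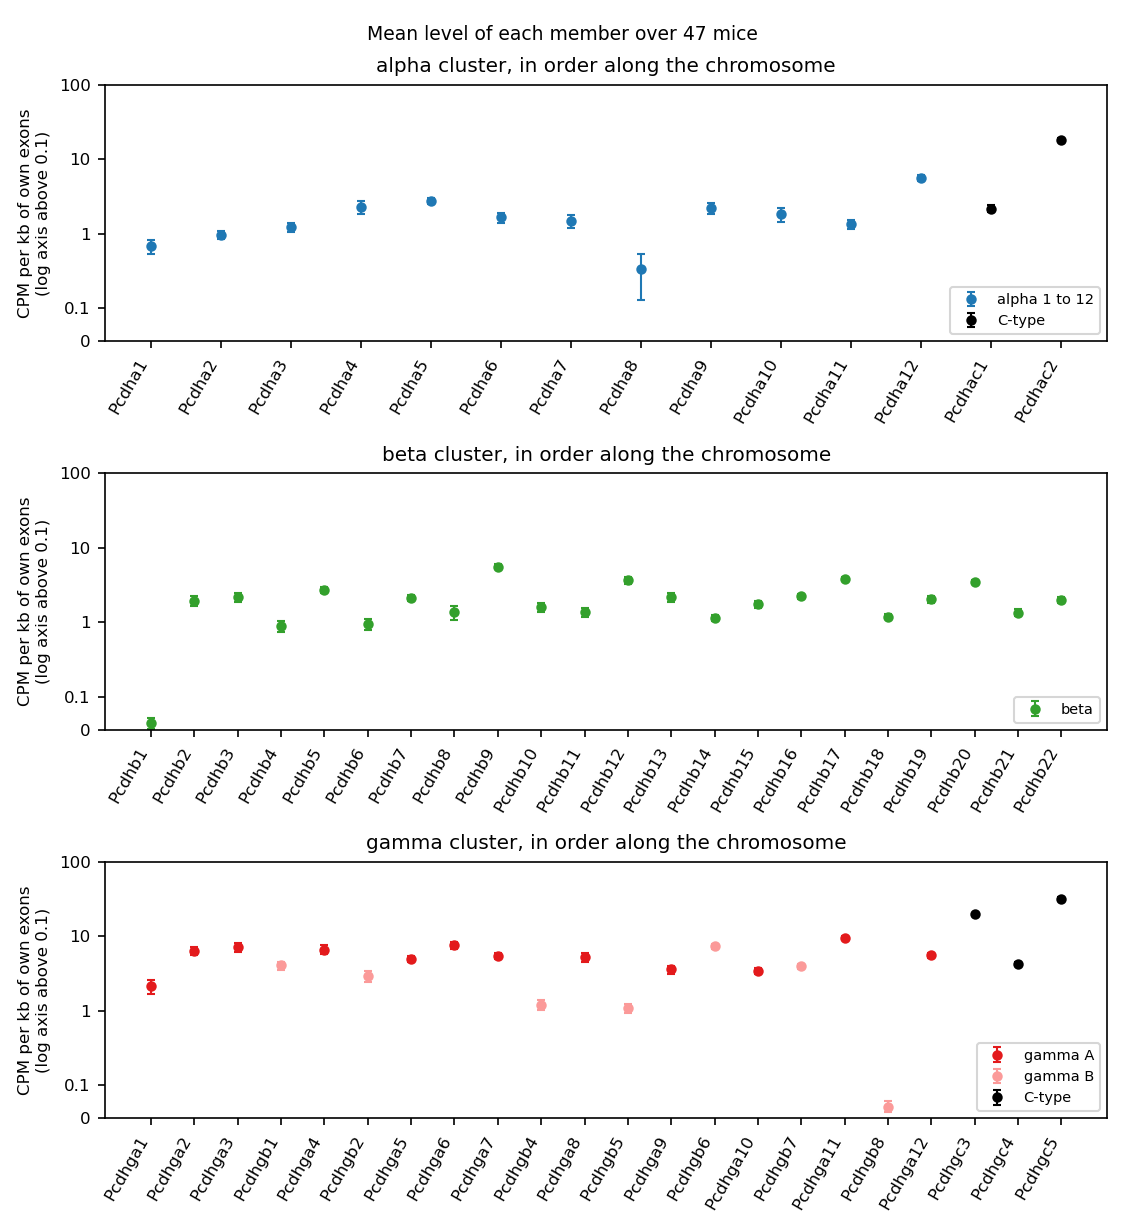
Mean level of the 58 annotated members over 47 mice in CPM per kb of exon bases that no other gene shares (log axis above 0.1), in order along the chromosome; bars are the SD between mice. Pcdhgc5, Pcdhgc3 and Pcdhac2 stand highest at 31.8, 19.6 and 18.3 CPM per kb, and Pcdhb1 and Pcdhgb8 lie near 0.

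The summed level of each cluster was nearly the same in all 6 genotypes. Summed alpha CPM had a lowest, median and highest mouse of 110, 116 and 122 in Q140 X Ccdc82-/-, 110, 116 and 122 in Ccdc82-/-, 102, 110 and 115 in Q140 X Ccdc82+/-, 107, 113 and 119 in Ccdc82+/-, 106, 114 and 121 in Q140, and 105, 114 and 120 in WT. Genotype means of the beta sum lay between 182 and 186 CPM, and those of the gamma sum between 463 and 477 CPM. For every cluster the ranges of all 6 genotypes overlapped. In the gamma cluster the highest genotype mean was that of Q140 mice, at 477 ± 7.95 CPM, and the lowest that of Q140 X Ccdc82+/- mice, at 463 ± 6.52 CPM, with 474 ± 13.9 CPM in WT mice (SD, n = 8 each). In whole tissue, fewer cells of a type and less RNA per cell cannot be told apart.

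**Figure D2:**
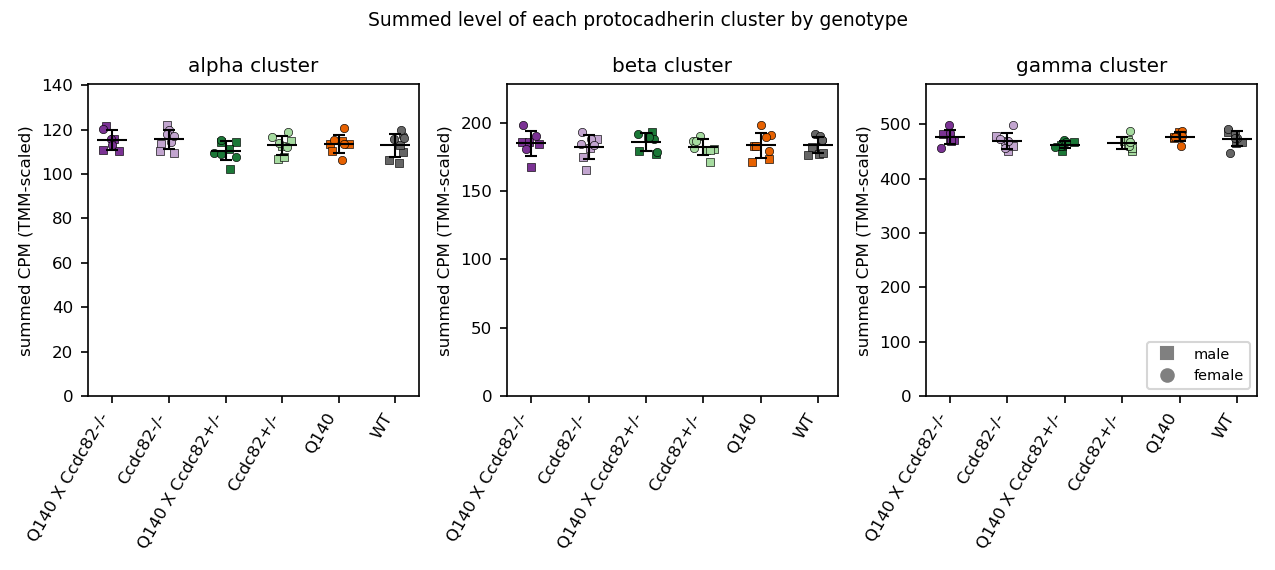
Summed CPM of the alpha, beta and gamma members per mouse by genotype, males as squares and females as circles, with the mean and SD of each genotype in black. The genotype means span 111 to 116 CPM for alpha, 182 to 186 CPM for beta and 463 to 477 CPM for gamma, and all genotypes overlap.

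Q140 against its controls asks whether heterozygous mutant huntingtin alters the family in cortex, and no member passed the test. Counts of members called at an adjusted p under 0.05 were 0 of 56 in edgeR in each of the 4 Q140 comparisons. The background, which is the share of all 19174 tested genes called, was 0.876% for Q140 averaged over the Ccdc82 genotypes, 0.0209% for Q140 X Ccdc82-/- against Ccdc82-/-, 0.0313% for Q140 X Ccdc82+/- against Ccdc82+/- and 0.0313% for Q140 against WT. At an unadjusted p under 0.05 the members numbered 2, 4, 1 and 3 of 56 in the same order of comparisons, against 9.18%, 4.17%, 5.18% and 6.93% of all genes. DESeq2 also called 0 members in each, against 1.3%, 0.0313%, 0.0469% and 0.163% of the genes it gave an adjusted p, which for Q140 against WT were 54 of the 56 members and for the others all 56. Without Q140 female 1, an alternative chosen after the data had been seen, edgeR called 0 members in each of the 12 genotype comparisons.

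Averaged over the Ccdc82 genotypes, the median log2 difference with Q140 was -0.02 over the 14 alpha members, 0.03 over the 21 beta members and 0.005 over the 21 gamma members, beside 0.001 over all genes. Without Q140 female 1 the medians were -0.03, 0.02 and 0.01. The estimates lay above 0 for 34 of the 56 members and below 0 for 22: 4 of 14 alpha, 16 of 21 beta and 14 of 21 gamma members were above 0. For 54 of the 56 members the 95% interval of the difference lay within a 1.2-fold change in either direction, each interval taken singly. The members outside that range were Pcdha8 and Pcdha10, both in the alpha cluster. Among the cell type markers, Rbfox3 of the 8 pan-neuronal and Lamp5 of the 7 interneuron markers fell with Q140 (-0.07 and -0.11, edgeR adjusted p = 0.00701 and 0.0420). Of all genes 0.876% were called. The pan-neuronal list had a median of -0.01 (from -0.07 to 0.04) and the interneuron list one of -0.03 (from -0.11 to -0.007). The part of these markers in the members' values was not tested.

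The smallest standard errors for Q140 averaged were those of the C-type members Pcdhac2, Pcdhgc5, Pcdhgc3 and Pcdhgc4, while that of Pcdhac1 was larger. The log2 difference with Q140 was -0.01 for Pcdhac2 (95% interval -0.04 to 0.02), -0.01 for Pcdhgc5 (-0.05 to 0.03), 0.003 for Pcdhgc3 (-0.04 to 0.05), 0.001 for Pcdhgc4 (-0.05 to 0.05) and -0.05 for Pcdhac1 (-0.13 to 0.04). Pcdhgc5 had 137, 149 and 163 CPM (lowest, median and highest mouse) in Q140 X Ccdc82-/- against 139, 141 and 159 CPM in Ccdc82-/-. In mice with 1 copy of Ccdc82 it had 133, 142 and 149 CPM in Q140 X Ccdc82+/- against 139, 150 and 153 CPM in Ccdc82+/-. With both copies it had 134, 151 and 155 CPM in Q140 against 135, 149 and 164 CPM in WT. Each pair overlapped over most of its range. Pcdhac2 had 54.4, 56.7 and 60.3 CPM in Q140 X Ccdc82-/- against 53.3, 56.8 and 59.99 CPM in Ccdc82-/-. It had 51.4, 53.4 and 56.3 CPM in Q140 X Ccdc82+/- against 50.8, 55.9 and 57.7 CPM in Ccdc82+/-, overlapping groups with a log2 difference of -0.04 (SE 0.0288, edgeR adjusted p = 0.999), and 50.1, 55.1 and 57.9 CPM in Q140 against 51.7, 56.01 and 57.5 CPM in WT.

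Among the rarer C-type members, Pcdhac1 averaged 5.91 ± 0.542 CPM in Q140 X Ccdc82-/- (n = 7), 5.61 ± 0.545 CPM in Ccdc82-/-, 5.31 ± 0.590 CPM in Q140 X Ccdc82+/-, 5.54 ± 0.609 CPM in Ccdc82+/-, 5.21 ± 0.477 CPM in Q140 and 5.80 ± 0.441 CPM in WT (SD, n = 8 each). Its lowest and highest mice were 4.22 and 5.67 CPM in Q140 against 5.09 and 6.46 CPM in WT, groups that overlapped. Pcdhgc4 stayed between a genotype mean of 14.4 CPM, in Q140 X Ccdc82+/- and in Ccdc82+/- mice, and one of 15.04 CPM, in Q140 X Ccdc82-/- mice, with 14.99 CPM in WT mice. Each cluster's highest members outside the C-type by FPKM were likewise close between genotypes. Pcdhga11 averaged 25.3 ± 1.88 CPM in 23 mice with Q140 and 24.6 ± 1.60 CPM in 24 mice without it (SD), a log2 difference of 0.04 (SE 0.0262, edgeR adjusted p = 0.692). Pcdha12, the last of the alternate alpha members before the C-type ones, averaged between 13.8 CPM (Q140) and 14.5 CPM (Q140 X Ccdc82-/-) in mice with Q140 and between 13.3 CPM (WT) and 13.9 CPM (Ccdc82+/-) in those without. Pcdhb17 averaged 17.7 ± 1.01 CPM in 23 mice with Q140 and 17.3 ± 1.16 CPM in 24 mice without it, and Pcdhb9 averaged 17.04 ± 1.36 CPM with it and 17.1 ± 1.37 CPM without it (SD).

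The 3 members with the smallest p for Q140 averaged were Pcdhb15, Pcdha10 and Pcdhb5. Pcdhb15 had 4.56, 5.14 and 5.62 CPM (lowest, median and highest) in Q140 X Ccdc82-/- against 3.94, 4.35 and 5.29 CPM in Ccdc82-/-. It had 3.95, 4.95 and 5.46 CPM in Q140 X Ccdc82+/- against 4.23, 4.99 and 5.64 CPM in Ccdc82+/-, and 4.36, 5.08 and 5.37 CPM in Q140 against 4.34, 4.62 and 5.21 CPM in WT. The ranges overlapped in all 3 pairs, and the averaged log2 difference was 0.08 (SE 0.0383, unadjusted p = 0.0382, edgeR adjusted p = 0.504). Pcdha10 had a lowest, median and highest of 2.25, 4.98 and 6.57 CPM in the mice with Q140 and 2.58, 4.13 and 5.74 CPM in those without it, a log2 difference of 0.18 (SE 0.0881, edgeR adjusted p = 0.520). Pcdhb5 had 7.03, 9.51 and 11.5 CPM in mice with Q140 and 8.76, 9.71 and 11.5 CPM in mice without it, a log2 difference of -0.07 (SE 0.0351, edgeR adjusted p = 0.581).

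**Figure D3:**
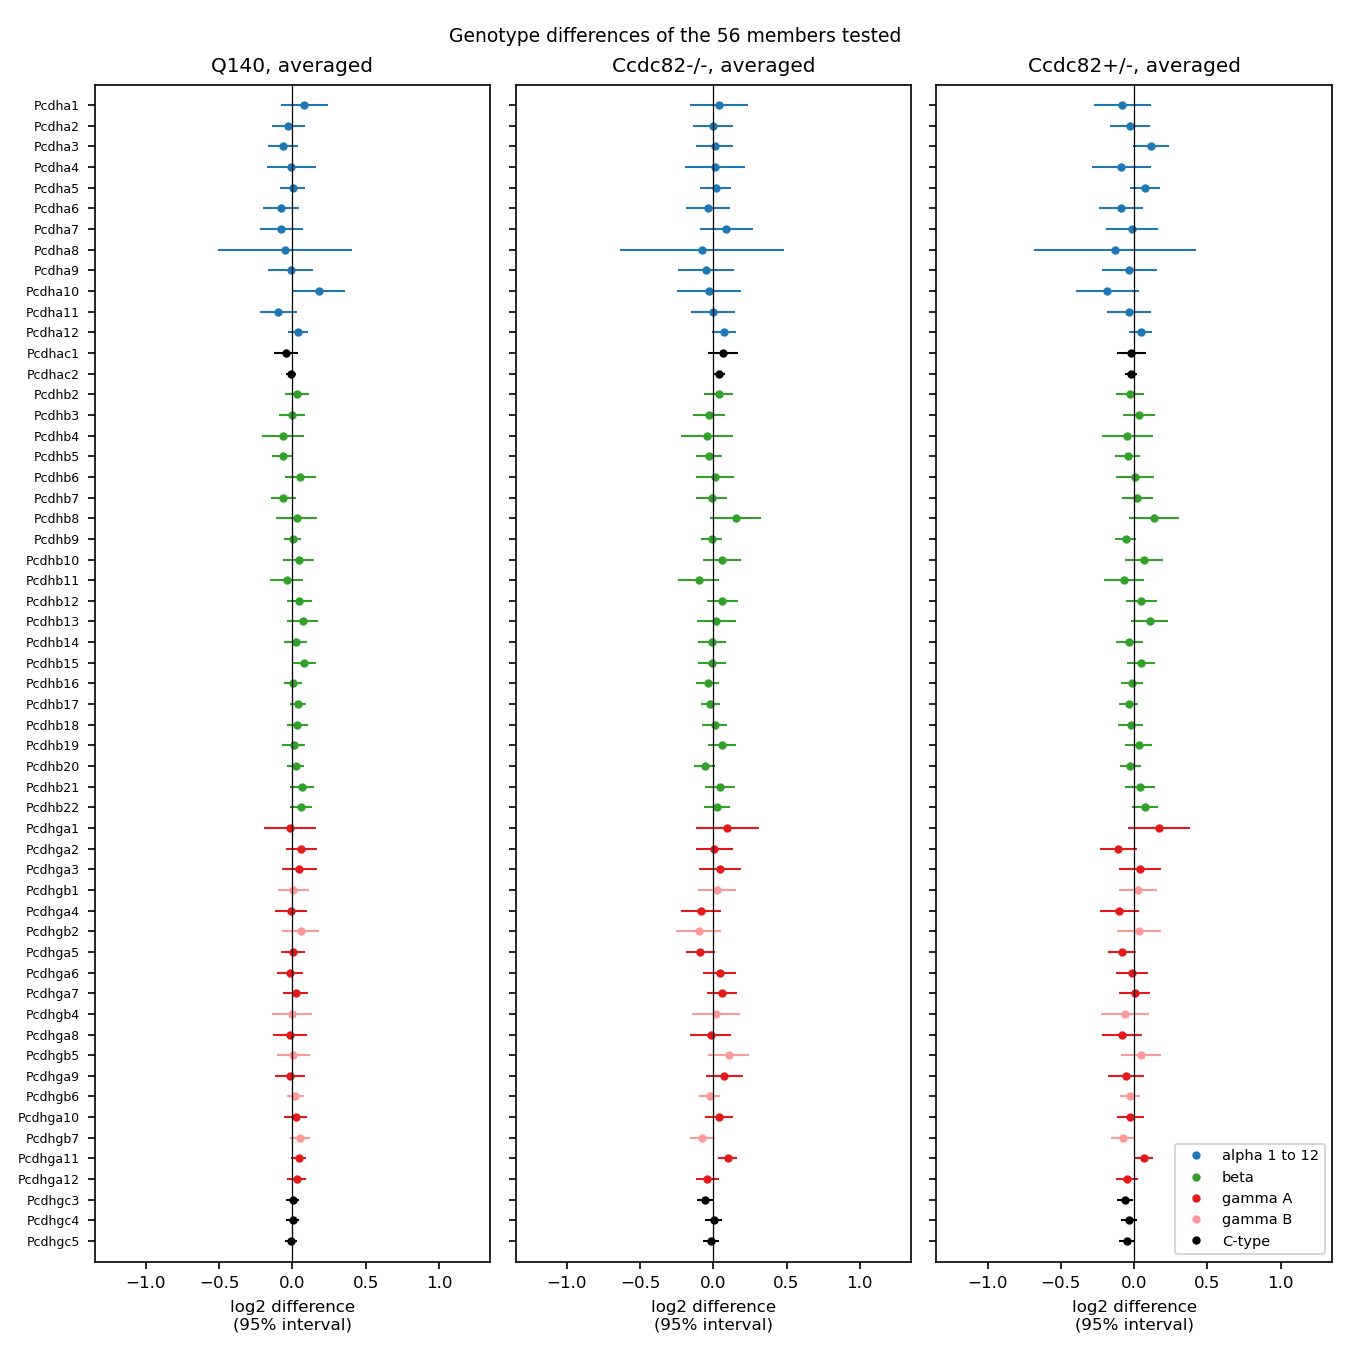
Log2 difference of each of the 56 tested members, with its 95% interval, for Q140 averaged over the Ccdc82 genotypes and for Ccdc82-/- and Ccdc82+/- averaged over mice with and without Q140, coloured by kind of member. The estimates lie between -0.10 and 0.18 for Q140, between -0.10 and 0.15 for Ccdc82-/- and between -0.18 and 0.17 for Ccdc82+/-, none has an adjusted p under 0.05, and Pcdha8 has the widest interval in each panel.

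Loss of Ccdc82 likewise gave no called member. In each of the 6 Ccdc82 comparisons 0 of 56 members were called by edgeR and by DESeq2. The background was 0.00522% of all genes in each of the 6, which is 1 gene of 19174, Ccdc82 itself. At an unadjusted p under 0.05, Ccdc82-/- gave 1 member averaged over mice with and without Q140 (4.65% of all genes), 4 members in Q140 X Ccdc82-/- against Q140 (4.09%) and 3 members in Ccdc82-/- against WT (3.23%). For Ccdc82+/- the same comparisons gave 3 members (5.31%), 2 members (5.42%) and 2 members (3.6%). These comparisons share their Q140 and WT mice. Cluster medians of the averaged log2 difference for Ccdc82-/- were 0.01 (alpha), -0.01 (beta) and 0.01 (gamma), and for Ccdc82+/- they were -0.03, 0.01 and -0.04, beside -0.001 over all genes in each.

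When mice with and without Q140 were averaged, the gamma members Pcdhga11 and Pcdhgc3 had the smallest p values for Ccdc82. Pcdhga11 had 24.4, 26.7 and 28.5 CPM (lowest, median and highest) in Q140 X Ccdc82-/- against 21.05, 24.5 and 26.1 CPM in Q140, and 21.4, 24.7 and 27.5 CPM in Ccdc82-/- against 20.7, 24.5 and 25.996 CPM in WT. Its ranges overlapped in both pairs, and the averaged log2 difference was 0.10 for Ccdc82-/- (SE 0.0322, edgeR adjusted p = 0.9999) and 0.07 for Ccdc82+/- (SE 0.0317, edgeR adjusted p = 0.905). Pcdhgc3 had averaged log2 differences of -0.05 for Ccdc82-/- (SE 0.0273, edgeR adjusted p = 0.9999) and -0.06 for Ccdc82+/- (SE 0.0268, edgeR adjusted p = 0.905). It averaged 65.2 ± 2.50 CPM in Q140 X Ccdc82-/- (n = 7), 66.0 ± 5.08 CPM in Ccdc82-/-, 65.4 ± 4.20 CPM in Q140 X Ccdc82+/-, 65.0 ± 2.56 CPM in Ccdc82+/-, 68.5 ± 2.41 CPM in Q140 and 67.7 ± 3.81 CPM in WT (SD, n = 8 each). Pcdhgb7, first by p in Q140 X Ccdc82+/- against Q140, had a log2 difference of -0.13 there (SE 0.0567, edgeR adjusted p = 0.921). Pcdhb8, first by p in Ccdc82-/- against WT, had 4.36, 5.403 and 6.97 CPM in Ccdc82-/- mice against 2.97, 3.96 and 6.67 CPM in WT mice, a log2 difference of 0.38 (SE 0.1198, edgeR adjusted p = 0.999) between overlapping groups. Pcdhb2, first by p in Ccdc82+/- against WT, had 4.46, 5.06 and 6.11 CPM in Ccdc82+/- mice against 4.86, 5.76 and 6.94 CPM in WT mice, also overlapping, a log2 difference of -0.19 (SE 0.0684, edgeR adjusted p = 0.993).

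Whether the Q140 difference itself depended on Ccdc82 was tested as an interaction, in which edgeR and DESeq2 each called 0 of 56 members with Ccdc82-/- and 0 of 56 with Ccdc82+/-, and the background was 0% of all genes in both. The members at an unadjusted p under 0.05 numbered 5 with Ccdc82-/- (2.96% of all genes) and 2 with Ccdc82+/- (3.52%). Pcdhb2 had the smallest p in both, with an interaction of 0.33 (log2 units, SE 0.0985) for Ccdc82-/- and 0.33 (SE 0.0971) for Ccdc82+/-, each at an edgeR adjusted p of 0.9998. The 2 interactions share the Q140 against WT difference, which for Pcdhb2 was -0.19 (SE 0.0684, edgeR adjusted p = 0.507). Without Q140 female 1, whose Pcdhb2 level was the highest of the Q140 mice, that difference was -0.25 and the interactions were 0.38 with Ccdc82-/- and 0.39 with Ccdc82+/-. Leaving out the highest Q140 mouse moves these values in this direction by itself, and the mouse was chosen after the data had been seen. Pcdhb2 had 4.59, 5.87 and 7.16 CPM in Q140 X Ccdc82-/- against 4.04, 5.59 and 6.34 CPM in Ccdc82-/-, 4.83, 5.61 and 6.55 CPM in Q140 X Ccdc82+/- against 4.46, 5.06 and 6.11 CPM in Ccdc82+/-, and 4.24, 4.96 and 7.06 CPM in Q140 against 4.86, 5.76 and 6.94 CPM in WT. The ranges overlapped in each pair. Over the 12 genotype comparisons, 32 of 672 member tests (4.76%) had an unadjusted p under 0.05, beside 4.85% of the tests of all genes.

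Sex was the one factor with called members, and in the main fit their share lay near that of all genes. Male against female, averaged over genotypes, called 8 of 56 members (14.3%) in edgeR, against 10.5% of all 19174 genes, and 10 of 56 in DESeq2, against 14% of genes. At an unadjusted p under 0.05 were 14 of 56 members and 26% of all genes. None of the 19 numbers that the library names carry held mice of both sexes, so sex is nested in that number, whose meaning the labels do not give. With the number as a random block (within-number correlation 0.142), 5 of the 8 calls held, and Pcdhb8, Pcdhb5 and Pcdhgb6 were not called (limma adjusted p = 0.0506, 0.0531 and 0.0552). Fewer genes were called in all with this block, so the shares given here do not apply to it. The count over all genes is given in the last section. Lower in males were 7 members (12.5%), beside 5.27% of all genes, and higher in males was 1, beside 5.26%. Without that block, the members that fell in males were Pcdhb2, Pcdhb3, Pcdhb5, Pcdhb6, Pcdhb8 and Pcdhb9 of the beta cluster and Pcdha8 of the alpha cluster, and Pcdhgb6 of the gamma cluster rose.

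Pcdhb2 had a lowest, median and highest of 4.04, 4.91 and 5.87 CPM in 24 males and 4.56, 6.13 and 7.16 CPM in 23 females. Of the females, 15 lay above every male. The log2 difference was -0.30 (SE 0.0401, edgeR adjusted p = 1.08e-06), it was below 0 within all 6 genotypes, and the sexes did not overlap in Q140 X Ccdc82-/-, Q140 X Ccdc82+/- and WT mice. Pcdhb6 had 2.45, 3.12 and 4.22 CPM in males and 3.28, 3.83 and 5.28 CPM in females, and 15 males lay below every female. Its log2 difference was -0.30 (SE 0.0525, edgeR adjusted p = 0.000192), also below 0 within all 6 genotypes. The signs within genotypes come from the same mice as the call and add no separate evidence. Some members that were not called, such as Pcdhb13, were also lower in males in all 6.

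Pcdhb8 had 2.92, 4.19 and 5.76 CPM in males and 3.46, 5.26 and 6.97 CPM in females, a log2 difference of -0.29 (SE 0.0703, edgeR adjusted p = 0.00607; 0.0506 with the block). Within genotypes it was lower in males in 5 of 6, and the sexes overlapped in every genotype. Pcdhb3 had 5.81, 7.68 and 9.11 CPM in males and 6.05, 8.71 and 10.5 CPM in females, a log2 difference of -0.19 (SE 0.0446, edgeR adjusted p = 0.00382), with males lower in 6 of 6 genotypes. Smaller differences were found for Pcdhb5, at -0.14 (SE 0.0351, edgeR adjusted p = 0.00909; 0.0531 with the block), and for Pcdhb9, at -0.10 (SE 0.0295, edgeR adjusted p = 0.0164), each with males lower in 5 of 6 genotypes. The only called member that was higher in males was Pcdhgb6, with 16.9, 19.6 and 22.6 CPM in males and 15.7, 18.4 and 20.4 CPM in females, a log2 difference of 0.11 (SE 0.0292, edgeR adjusted p = 0.00998; 0.0552 with the block).

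Pcdha8 had the largest difference and the lowest counts of the 8, from 7 to 121 per library. It had 0.141, 0.548 and 1.54 CPM in males and 0.134, 1.04 and 2.30 CPM in females, a log2 difference of -0.92 (SE 0.228, edgeR adjusted p = 0.00802). Males were lower in 6 of 6 genotypes, although the lowest mouse of all was female and the sexes overlapped in 4 of the 6.

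All 6 called beta members fell within 1 stretch of the chromosome, between Pcdhb2 and Pcdhb9. Of the 8 tested members of the stretch from Pcdhb2 to Pcdhb9, 6 were called lower in males, beside 5.27% of all genes. The stretch had a median log2 difference of -0.17 (from -0.30 to 0.03). With the random block, Pcdhb5 and Pcdhb8 of this stretch were not called. Of the 13 members from Pcdhb10 to Pcdhb22, 0 were called, with a median of -0.03 (from -0.15 to 0.07). This division of the cluster was made after the values had been seen and was not tested. Nearest to the threshold among the uncalled was Pcdhb13, with a log2 difference of -0.15 (SE 0.0526, edgeR adjusted p = 0.0525). The summed beta cluster averaged 180 ± 6.92 CPM in 24 males and 188 ± 5.15 CPM in 23 females (SD), the alpha cluster 112 ± 4.61 CPM in males and 115 ± 4.05 CPM in females, and the gamma cluster 469 ± 10.5 CPM in males and 473 ± 14.1 CPM in females.

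Some cell type markers were also called between the sexes, where 10.5% of all genes were called. These calls come from fits without the random block of the library-name number. Whether each holds with that block is not given here. In edgeR, 0 were called among the markers of cortical excitatory neurons, astrocytes, oligodendrocytes, microglia, meningeal fibroblasts, choroid plexus and red blood cells. The oligodendrocyte precursor markers Gpr17 and Vcan were lower in males by log2 differences of -0.26 and -0.13 (edgeR adjusted p = 0.000802 and 0.00125), 2 of 4 in their list, and the list summed to between 99.3 and 122 CPM in males and between 107 and 136 CPM in females. The endothelial markers Cldn5 and Flt1 were lower in males (-0.21 and -0.08, edgeR adjusted p = 0.00110 and 0.0468), 2 of 6, with sums of 220 to 264 CPM in males and 221 to 267 CPM in females. The interneuron markers Gad1 and Gad2 were higher in males (0.06 and 0.05, edgeR adjusted p = 0.00563 and 0.00802), 2 of 7, with sums of 1196 to 1351 CPM in males and 1173 to 1341 CPM in females. Map2, of the 8 pan-neuronal markers, was lower (-0.06, edgeR adjusted p = 0.00102), and Ppp1r1b, of the 6 striatal markers, higher (0.10, edgeR adjusted p = 0.0339). The list medians were -0.07 (oligodendrocyte precursors), -0.04 (endothelial), 0.003 (interneuron), -0.0008 (pan-neuronal) and -0.01 (striatal). The part of these cell types in the sex differences of the members was not tested.

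Without Q140 female 1, edgeR called 9 members between the sexes, the 8 above and Pcdhb13, with log2 differences of -0.28 for Pcdhb2 and -0.83 for Pcdha8. With the random block, those still called were Pcdhb2, Pcdhb6, Pcdhb3, Pcdha8 and Pcdhb9.

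**Figure D4:**
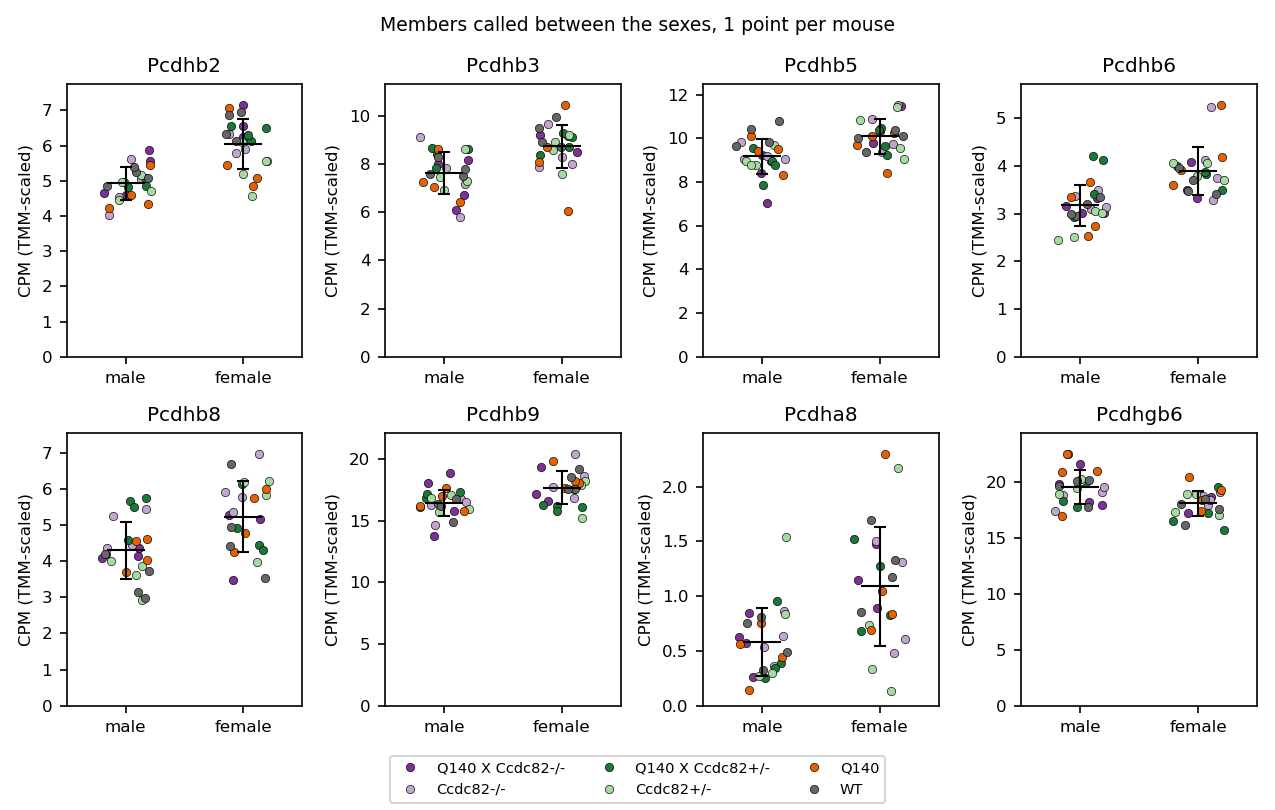
CPM of the 8 members called between the sexes, 1 point per mouse coloured by genotype, males left of females, with mean and SD in black. Pcdhb2 shows 15 of 23 females above every male, Pcdha8 scatters from 0.134 to 2.30 CPM, and Pcdhgb6 is the one member that is higher in males.

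Members differed in how much they varied between mice of the same genotype and sex. The measure is the biological coefficient of variation, edgeR's estimate of the spread beyond counting noise, divided by its trend for genes of the same abundance. A value over 1 means more spread than the trend at that level. The usual gene lies below the trend: 32.4% of all tested genes exceeded 1 (median 0.847). Among the members, 15 of 21 gamma, 9 of 14 alpha and 11 of 21 beta members exceeded it. Pcdha8 was the most variable, with a coefficient of 52.3%, which is 3.41 times the trend and places it at percentile 99.5 of all genes. Pcdhga1 (2.27 times), Pcdhga3 (2.06 times) and Pcdha10 (2.03 times) followed.

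Of the kinds of member the C-type was the steadiest, but its median ratio of 0.850 was close to the 0.847 of all tested genes. None of the 5 exceeded the trend, and their ratios lay between 0.641 for Pcdhgc4 and 0.985 for Pcdhgc5. Along the gamma cluster, the 13 members from Pcdhga1 to Pcdhga9 had ratios of 1.22 to 2.27 (median 1.58). The 5 tested members that follow them before the C-type ones, Pcdhgb6, Pcdhga10, Pcdhgb7, Pcdhga11 and Pcdhga12, had ratios of 0.881 to 1.17. This boundary was drawn after the values had been seen and was not tested. In the alpha cluster the 5 consecutive members from Pcdha7 to Pcdha11 had ratios of 1.43, 3.41, 1.83, 2.03 and 1.48. Within each cluster, the SD of the summed CPM between mice was 1.62 times (beta), 1.29 times (alpha) and 1.12 times (gamma) what members varying independently would give. Other sets of genes were not measured this way, and the source of these ratios was not tested.

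**Figure D5:**
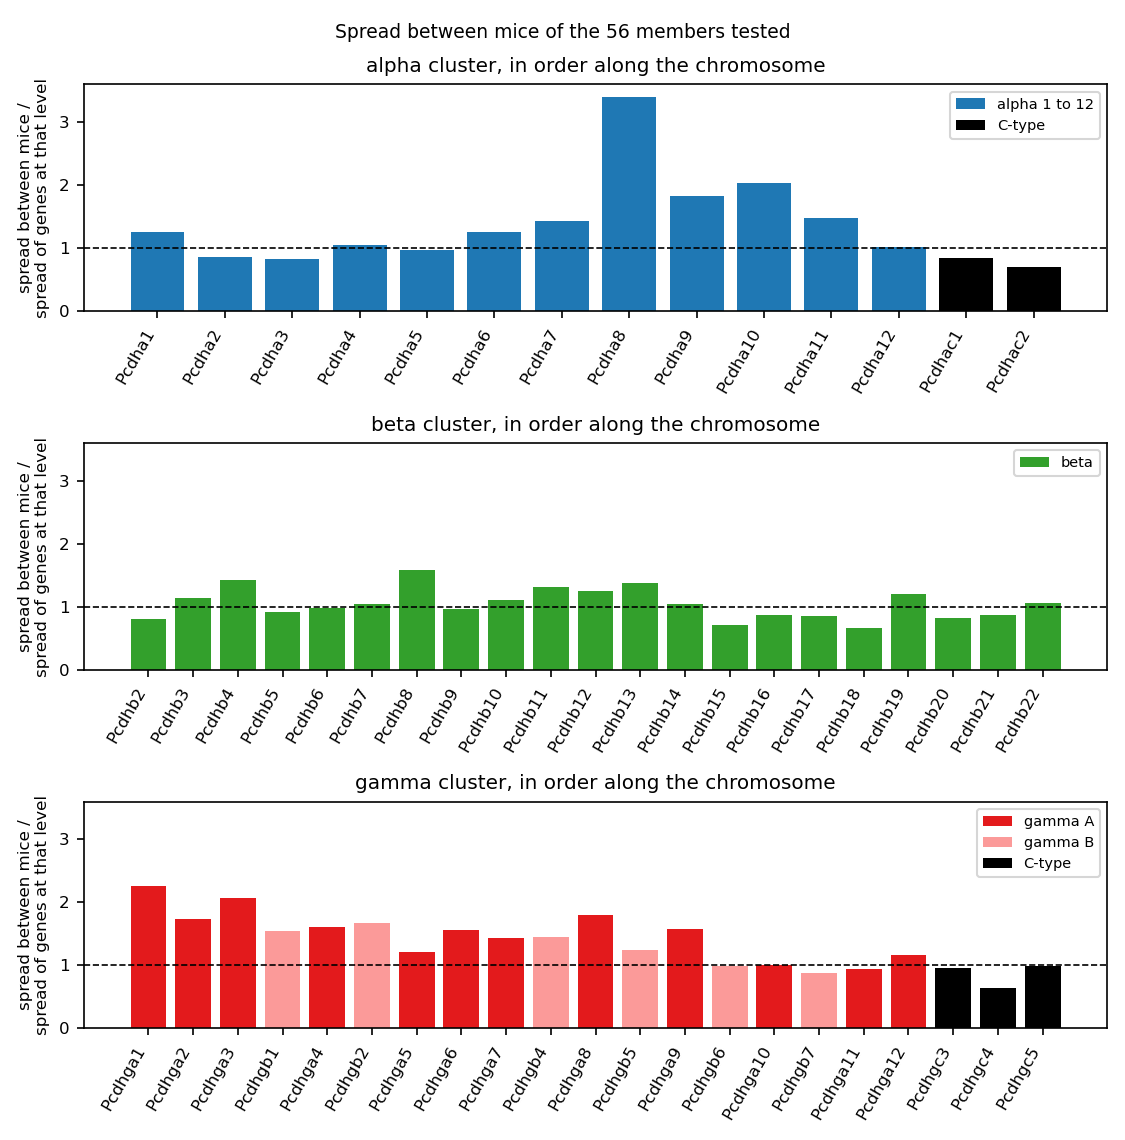
Biological coefficient of variation of each tested member divided by the trend of genes at the same abundance, in order along the chromosome; the dashed line marks 1. Pcdha8 reaches 3.41, all 13 members from Pcdhga1 to Pcdhga9 lie above 1, and the 5 C-type members lie below it.

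Genes that act with the family were examined as 5 lists. For Q140 averaged, where the background was 0.876%, edgeR called 1 of 29 binding partners, processing and signalling genes, and it rose: Marcks, a protein kinase C substrate downstream of the gamma protocadherins in dendrite growth (log2 difference 0.09, SE 0.0197, edgeR adjusted p = 0.00609). Among 27 classical cadherins and catenins it called 1, the cadherin gene Cdh7, which rose (0.08, SE 0.0196, edgeR adjusted p = 0.0220). The medians of these lists were 0.01 and 0.03, 4 and 9 of their genes had an unadjusted p under 0.05 (9.18% of all genes), and the median was 0.001 over all genes. Called by edgeR for Q140 were 0 of the 14 genes of cohesin, CTCF and promoter choice, 0 of the 18 genes of silencing and DNA methylation and 0 of the 12 non-clustered protocadherins. At an unadjusted p under 0.05 were 5 of 14, 1 of 18 and 5 of 12, beside 9.18% of all genes, with medians of 0.02, 0.002 and 0.04. DESeq2 called 0, 0 and 1 of them, beside 1.3% of genes. The smallest p belonged to the cohesin subunit gene Stag2 in the first list (0.04, edgeR adjusted p = 0.341) and to Pcdh11x in the last (0.11, edgeR adjusted p = 0.0706). For Ccdc82-/- and Ccdc82+/- averaged, edgeR and DESeq2 called 0 genes in each of the 5 lists. Each list had 0 to 3 genes at an unadjusted p under 0.05, beside 4.65% and 5.31% of all genes.

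Between the sexes, where 10.5% of all genes were called, the lists held 0 to 3 calls in either direction. They too come from the fit without the random block, under which fewer genes were called, and were not followed under it here. In the silencing list 3 of 18 were higher in males: Tet2, which oxidises methylated cytosine (0.10, edgeR adjusted p = 0.00259), and the histone methyltransferase genes Ehmt1 and Suv39h1 (0.06 each, edgeR adjusted p = 0.0197 and 0.0344). Of the cohesin list 1 of 14 was called, Pds5b, which was lower (-0.05, edgeR adjusted p = 0.0281). The sheddase gene Adam10, whose product cleaves gamma protocadherins, was lower (-0.05, edgeR adjusted p = 0.00349), and Aph1a, a gamma-secretase subunit gene, was higher (0.10, edgeR adjusted p = 0.0113), 2 of 29 in their list. Among the 12 non-clustered protocadherins Pcdh9 and Pcdh17 were lower (-0.06 and -0.11) and Pcdh15 higher (0.10), with edgeR adjusted p values of 0.0139, 0.0369 and 0.0352. Of 27 cadherins and catenins, Fat3, an atypical cadherin, and Cdh10 were lower in males (-0.19 and -0.06, edgeR adjusted p = 4.78e-07 and 0.0370).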

How the data were processed

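RNA from the cerebral cortex of 47 mice was sequenced from stranded TruSeq libraries, per the labels' protocols. Alignment and counting tools listed in the submitters' processing notes are HTSeq 0.12.3, SAMtools 1.10 and STAR 2.7.5c, with the GRCm38 (mm10) build. The authors deposited raw counts per gene and FPKM values. The counting mode, strand setting and annotation are not given in the sources used here. Exon lengths and positions were taken from GENCODE M21.

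Counts were fitted in edgeR 4.0.16 under R 4.3.3 (TMM scaling, filterByExpr with a minimum count of 10 and a minimum total of 15, robust quasi-likelihood test, terms for genotype and sex, all 47 libraries). This left 19174 genes, and p-values were adjusted by Benjamini-Hochberg over all of them at 0.05. CPM values were computed from the deposited counts with TMM-scaled totals, and differences are on the log2 scale. The 13 comparisons were 12 of genotype and 1 of sex. DESeq2 1.42.0 and limma 3.58.1 served among 11 alternatives. The fit was tested on simulated data in which genes changed only with Q140 and libraries varied independently. That test does not cover the sex comparison or correlation within the library-name number.

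Members given in full were, per cluster, the 2 highest by FPKM, the C-type members, those with the smallest p in each comparison (3 for Q140 averaged, 2 for the other averaged ones, 1 elsewhere) and all called ones. Pcdhb13, Pcdha4 and members named for their spread or position fall outside this rule and were chosen after their values were seen. The members and lists were chosen with earlier results of these data known. Replicate numbers in the labels did not pair the mice: same-numbered mice of a sex had a median correlation of 0.0151 between their deviations, with 11 of 115 pairs over 0.1. P-values measure the spread between these libraries. No libraries of a group agreed within sampling noise (chi-square per gene 3.73 to 22.7 over 161 pairs). Some genes of the marker and related lists are not reported here.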

Additional observations from a re-analysis of the deposited data

Results flagged for a closer look

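Within each genotype, 19 members and the 3 cluster sums were examined for a single mouse far from the rest, 132 groups in all, and 6 stood out; chance alone gives about 1 in 20. In Ccdc82-/- mice, Pcdha12 reached 15.72 CPM in male 4, where the next mouse had 14.08 CPM and the lowest 12.89 CPM. The other 5 all fell on Q140 female 1, the mouse with the lowest excitatory neuron and the highest oligodendrocyte marker sums of the 47. Its summed gamma cluster was the lowest of the Q140 mice at 461 CPM, against 475.4 to 486.9 CPM in the others. Pcdhac2 was lowest at 50.06 CPM, against 54.50 to 57.94 CPM, and Pcdhgc5 was lowest at 133.8 CPM, against 146.1 to 154.9 CPM. Pcdhb2 was highest at 7.06 CPM, against 4.239 to 5.447 CPM, and Pcdha8 was highest at 2.302 CPM, against 0.1415 to 1.044 CPM.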

How the results depend on the processing

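Members called by genotype numbered 0 under the 11 alternatives in every comparison each was fitted for, which is all 12 except for the fit on the compared groups alone (pairwise comparisons only). Between the sexes 8 were called, and between 8 and 10 under the other settings, except that the random block of the library-name number left 5. The replicate block called 0 members for Q140 averaged (154 genes in all, against 168 without it, and 239 by DESeq2) and changed no call; with it, or without a sex term, the sex comparison could not be made. For Q140 averaged, cluster medians stayed between -0.03 and -0.004 (alpha), 0.02 and 0.03 (beta) and 0.003 and 0.01 (gamma). The sign of Pcdhgc4, at 0.001, turned to -0.00043 without the count filter and -0.0018 with plate column as a factor, and that of Pcdhgc3, at 0.003, to -0.0020 without Q140 female 1 (an alternative chosen after seeing the data), all near 0; the cause was not tested. For Q140 against WT, DESeq2 called 24 genes in all, against 6. With the library-name block the sex comparison called 851 of 19174 genes and 5 of 56 members. Without it, 2018 of 19174 genes and 8 of 56 members were called. Pcdha8 had low counts (7 to 121) and also a spread between mice beyond counting noise of 3.41 times the trend. Pcdhb1 and the Pcdhgb8 rows were too low to test.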
